A study of Mus musculus with 8 samples.

Results

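The 41 genes described here encode the semaphorins, the plexins and neuropilins that bind them, the Slit ligands and their Robo receptors, and the repulsive guidance molecules (RGMs) with their receptor neogenin. They were chosen by gene symbol from 19938 genes read on the arrays, and all 41 were measured. Hjv (hemojuvelin), a further RGM, was not among them and was counted with the BMP partners. The comparison was of cumulus oocyte complexes, each an oocyte with the granulosa-derived cumulus cells around it, from mice with and without a working progesterone receptor gene (Pgr). The genes were picked with earlier results of this same genotype comparison known. The differences below therefore describe these genes, and the number past the threshold is not evidence about them. The signal of a gene with several probe sets was taken from the one with the highest mean.

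All animals carried the PRlacZ knock-in, in which lacZ disrupts transcription of both Pgr isoforms. The PRKO mice were homozygous for it, and the controls were heterozygous (PR+/-), so the controls also carried 1 disrupted allele, and the disruption was in every cell of the mouse rather than in the complexes alone. Pre-pubertal mice of 21 to 23 days received 5 IU of equine chorionic gonadotropin, which makes follicles grow, and 44 to 47 h later 5 IU of human chorionic gonadotropin (hCG), which triggers ovulation. The complexes were taken 8 h after hCG by puncturing antral follicles. Each array held RNA pooled from 3 animals, with 4 arrays and 12 animals per genotype. Signals are log2 values, and each difference is PRKO minus PR+/- with its standard error from limma. Adjusted p-values are limma's with Benjamini-Hochberg adjustment over all 21789 probe sets that carry 1 gene symbol, and an adjusted p under 0.05 counts as passing.

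Semaphorins are secreted or membrane-bound ligands named for steering growing axons. Plexins are their main receptors, and many secreted class 3 semaphorins also need a neuropilin as the ligand-binding co-receptor. Slits are large secreted proteins that repel cells and axons through Robo receptors. RGMs sit on the membrane through a lipid anchor, bind neogenin and also act as co-receptors for bone morphogenetic proteins (BMPs). All these families act outside the nervous system too, in vessel growth, cell migration and cell contact, and Slit and Robo transcripts have been described in the human corpus luteum.

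The promoters of the 4 passing genes with the lowest adjusted p are shown because these genes carry the genotype difference described below. Each window holds the 250 bases before the RefSeq start (GRCm38.p6), 5′ to 3′ on the strand of the gene. The capitals mark a TATA box (TATAAA), a GC box (GGGCGG) or a cyclic AMP response core (TGACG, which reads CGTCA on the other strand). The windows are chr17:15831247-15831496 on the minus strand for Rgmb, and on the plus strand chr5:12382916-12383165 for Sema3d, chr5:47982905-47983154 for Slit2 and chr9:57939862-57940111 for Sema7a. Rgmb has 3 RefSeq windows, and the first listed is printed.
Rgmb: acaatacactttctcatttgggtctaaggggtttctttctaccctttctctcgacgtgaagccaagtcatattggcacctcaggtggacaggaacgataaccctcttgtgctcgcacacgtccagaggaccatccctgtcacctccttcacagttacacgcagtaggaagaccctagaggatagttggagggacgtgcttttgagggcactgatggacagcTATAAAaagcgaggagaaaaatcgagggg
Sema3d: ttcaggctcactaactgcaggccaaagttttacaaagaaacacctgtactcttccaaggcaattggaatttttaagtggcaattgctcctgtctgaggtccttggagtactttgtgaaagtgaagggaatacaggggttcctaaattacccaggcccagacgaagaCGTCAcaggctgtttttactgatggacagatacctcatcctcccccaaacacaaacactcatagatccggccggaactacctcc
Slit2: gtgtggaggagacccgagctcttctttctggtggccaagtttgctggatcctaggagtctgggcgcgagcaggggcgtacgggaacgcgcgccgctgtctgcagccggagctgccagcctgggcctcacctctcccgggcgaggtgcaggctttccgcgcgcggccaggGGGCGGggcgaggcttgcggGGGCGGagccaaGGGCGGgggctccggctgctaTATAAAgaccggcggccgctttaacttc
Sema7a: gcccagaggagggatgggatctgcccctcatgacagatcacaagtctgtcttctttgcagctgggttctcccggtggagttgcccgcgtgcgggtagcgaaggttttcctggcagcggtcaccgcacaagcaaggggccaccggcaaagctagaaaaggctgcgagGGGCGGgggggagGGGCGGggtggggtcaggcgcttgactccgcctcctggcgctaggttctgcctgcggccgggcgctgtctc
The TATA box began 29 bases before the start in Rgmb and 28 bases before it in Slit2. The Slit2 window also held GC boxes beginning 81, 61 and 49 bases before the start, and that of Sema7a held them at 84 and 71. The Sema3d window held the cyclic AMP response core 84 bases before the start and none of the other motifs searched.

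Of the 41 genes, 34 had such a window and 7 did not. Only the first listed window of each of the 34 was counted. The 32851 RefSeq windows hold more than 1 window of some genes, so the shares below do not rest on like bases. Among 32851 RefSeq windows, searched on both strands, TATAAA stood in 12.4%, and it stood in 2 of the 34 guidance windows, those of Slit2 and Rgmb. TGACG stood in 17.8% of all windows and in 1 of the 34, that of Sema3d. GGGCGG stood in 32.7% of all windows and in 24 of the 34, among them those of Sema4c, Plxna2, Slit2 and Sema7a. The progesterone receptor palindrome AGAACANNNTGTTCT stood in 3 windows of all (0.00913%) and in none of the 34. Its half-site TGTTCT, which the palindrome contains, stood in 16.1% of all windows and in 4 of the 34, none of them a window of a passing gene. These are letter matches in short windows and say nothing of binding.

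Pgr itself, the gene that the mutation disrupts, read 6.09, 7.34, 6.54 and 7.15 on PR+/- replicates 1 to 4 and 5.84, 5.23, 5.54 and 6.17 on PRKO replicates 1 to 4. It was 2.13-fold lower in PRKO (-1.09 ± 0.26, limma adjusted p = 0.0452), although PRKO replicate 4 read above PR+/- replicate 1. Leaving out any one of PR+/- replicates 2 to 4 or PRKO replicates 1 to 3 ended the call, and adjusted p then lay between 0.0660 and 0.130. The call was also lost with an intensity trend and robust moderation (adjusted p = 0.0753) and over all probe sets (adjusted p = 0.143). The sources used here do not say whether the Pgr probe set lies in the disrupted part of the gene. Median signals of the 8 arrays ran from 5.35 to 5.46 over all probe sets. Arrays of 1 genotype correlated at 0.988 to 0.990 across probe sets and arrays of different genotypes at 0.981 to 0.988, a description over probe sets that are not independent.

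Rgmb, Sema3d, Slit2, Sema7a, Sema4c, Sema3a and Plxna2 were higher in PRKO complexes, by 1.35- to 1.97-fold. Of the 41 genes 7 passed, all of them upward, while 2.92% of all genes passed and 1.43% rose. The other 34 did not pass in either direction. None fell (limma), while 1.48% of all genes fell. An unadjusted p under 0.05 was reached by 14 of the 41, 12 higher and 2 lower, beside 16.0% of all genes, 9.30% higher and 6.72% lower. The median difference over the 41 genes was 0.06, beside 0.00 over all genes, and the differences ran from -0.59 to 0.98. The genotypes did not overlap for 12 of the 41, beside 10.2% of all genes. PRKO arrays lay wholly above PR+/- arrays for 11, beside 6.08% of all genes, and wholly below for 1, beside 4.12%. No member lay under the lower quartile of tested signals on every array, while 4193 of the 19938 genes did. Slit1 lay under it on PR+/- replicates 2 and 4 and Nrp2 on PR+/- replicate 1. Mean signals of Slit1, Nrp2, Sema4g, Robo3 and Plxnb3 were 4.39 to 4.68, beside quartiles of 4.21 to 4.31, and a change in these genes could be missed. Of the 34 that did not pass, 29 had a 95% interval of the difference lying within 1.5-fold either way. Over the 41 genes the share with such an interval was 70.7%, beside 92.9% of all genes.

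**Figure D1:**
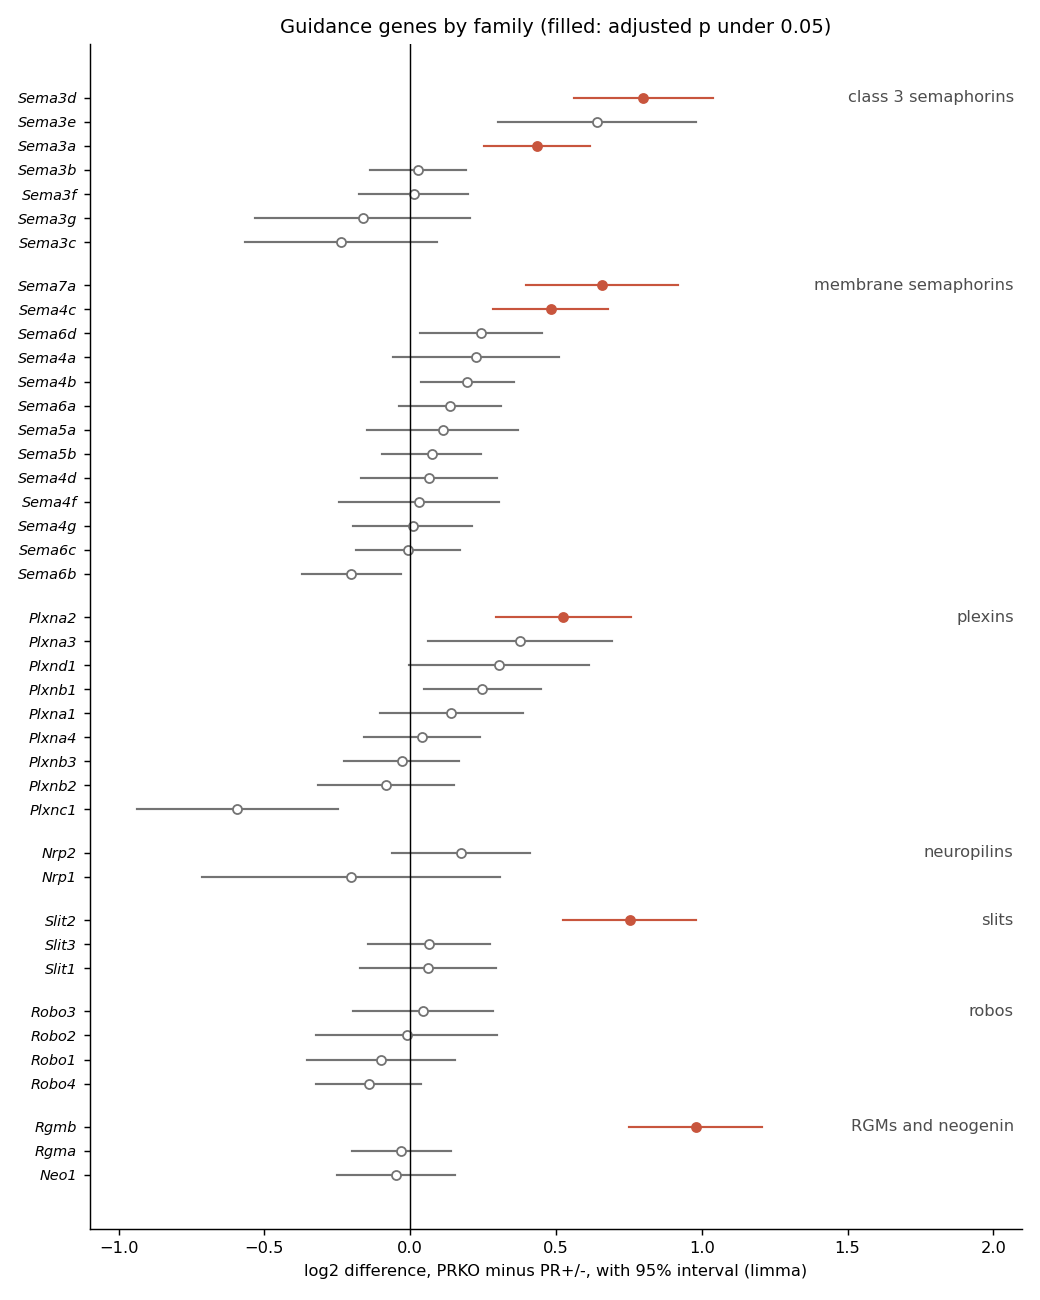
Log2 difference between PRKO and PR+/- complexes (horizontal axis) for each of the 41 guidance genes (vertical axis, by family), as a point with its 95% interval from limma on 4 arrays per genotype. Filled points passed an adjusted p of 0.05 and all lie to the right of 0, from Sema3a at 0.44 to Rgmb at 0.98. Plxnc1 lies farthest to the left at -0.59 and did not pass.

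Class 3 semaphorins are secreted ligands, and 2 of the 7, Sema3d and Sema3a, rose in PRKO while 5 did not pass. The median difference of the 7 was 0.03. Sema3d, whose protein is known for guiding axons and endothelial cells, read 7.42, 7.07, 7.10 and 6.96 on PR+/- replicates 1 to 4 and 8.09, 7.98, 7.76 and 7.91 on PRKO replicates 1 to 4. Every PRKO array was above every PR+/- array. The means were 7.14 ± 0.20 in PR+/- and 7.94 ± 0.14 in PRKO (SD, n = 4 each), a difference of 0.80 ± 0.11 or 1.74-fold (limma adjusted p = 0.00205).

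Sema3a, the founding collapsing factor for growth cones and a ligand of neuropilin-1, read 7.97, 7.91, 8.15 and 7.93 in PR+/- and 8.54, 8.33, 8.40 and 8.43 in PRKO. The genotypes did not overlap, and the PRKO arrays stood close together. Its difference was 0.44 ± 0.08, 1.35-fold (limma adjusted p = 0.0169). Without PR+/- replicate 2 the difference was 0.41 and did not pass (adjusted p = 0.0541).

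Sema3e, which binds plexin D1 without a neuropilin, read 6.04, 6.43, 6.91 and 6.57 in PR+/- and 7.001, 7.22, 6.97 and 7.31 in PRKO. The genotypes did not overlap, but PR+/- replicate 3 lay just below the lowest PRKO array. The difference was 0.64 ± 0.16 with a limma adjusted p of 0.0504, just outside the threshold. Without PR+/- replicate 3 it was 0.78 and passed (adjusted p = 0.0185). Plxna2, described below, is the passing gene nearest the threshold from the other side.

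Sema3c, known for its part in heart outflow development and a ligand of both neuropilins, read 9.88, 10.19, 9.91 and 10.08 in PR+/- and 10.19, 9.35, 9.89 and 9.69 in PRKO. The PRKO arrays were scattered on both sides of the PR+/- arrays' lower end, and the difference was -0.24 ± 0.15 (limma adjusted p = 0.495). It ran from -0.37 without PRKO replicate 1 to -0.09 without PRKO replicate 2. Sema3g, a ligand of neuropilin-2, differed by -0.16, with an interval from -0.53 to 0.20, and by 0.01 without PR+/- replicate 4. Sema3b and Sema3f, a pair studied as tumour suppressors in humans, differed by 0.03 and 0.01, with intervals inside 0.20 of 0.

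**Figure D2:**
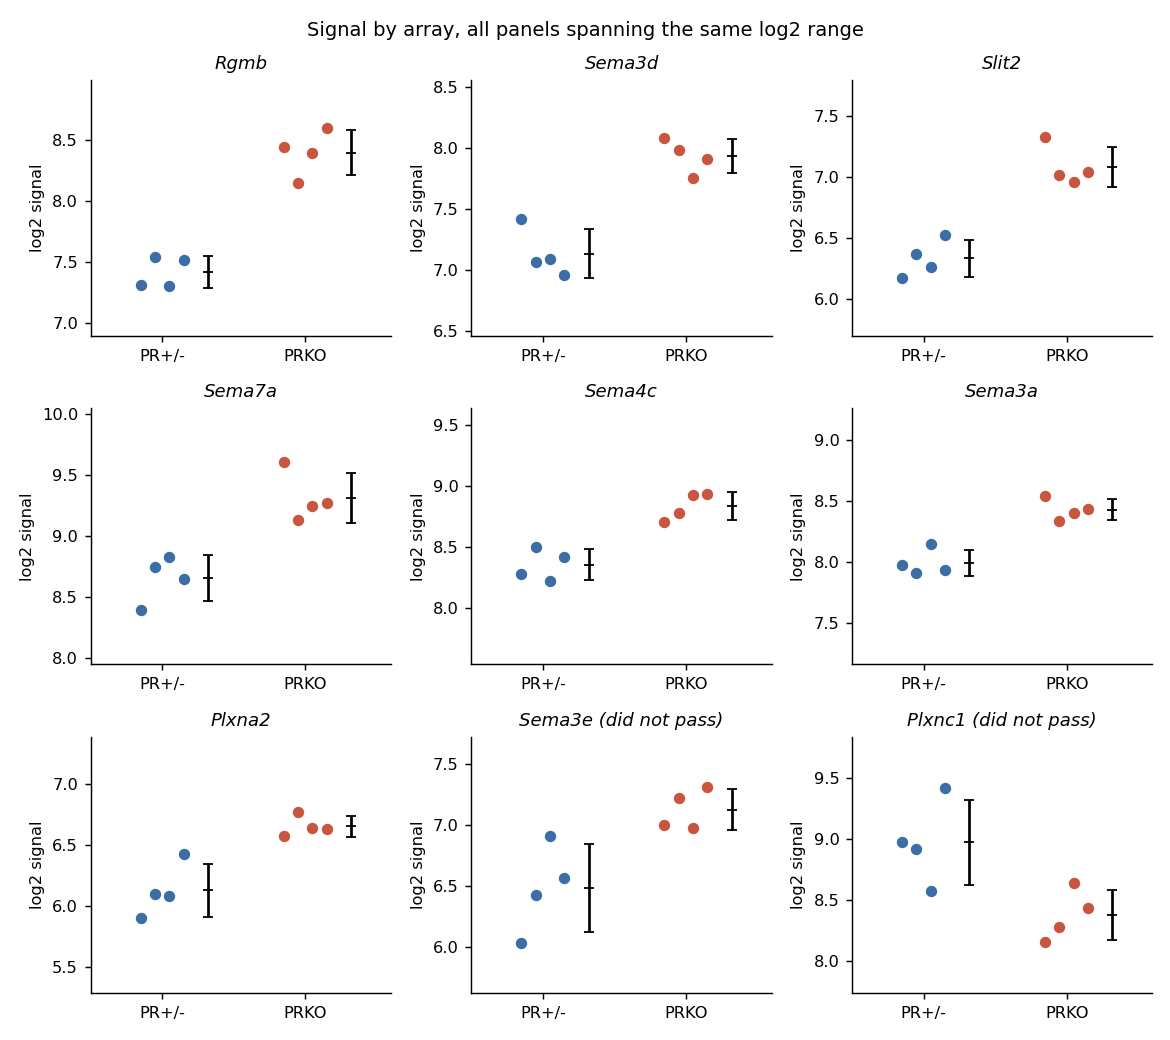
Log2 signal (vertical axis, all panels spanning the same log2 range) on each PR+/- array (blue) and PRKO array (red) for the 7 guidance genes that passed and for Sema3e and Plxnc1, which did not, with the mean and SD of each genotype as the black bar beside its points (n = 4). PRKO points lie above all PR+/- points in every panel but that of Plxnc1, where PR+/- replicate 3 at 8.57 lies below PRKO replicate 3 at 8.64.

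Sema3d, Sema3a, Sema3e and Sema3c lie along 1 stretch of chromosome 5, and in the RefSeq gene order this stretch holds 22 protein-coding genes from Sema3d to Sema3c, of which 8 were measured. None of the 4 measured genes in it that are not semaphorins passed (limma). Hgf, which encodes hepatocyte growth factor, differed by 0.32 ± 0.12 (adjusted p = 0.199). Cacna2d1, a calcium channel subunit gene, differed by -0.42 ± 0.14 (adjusted p = 0.149). Pclo, a presynaptic scaffold gene, differed by -0.04, and Speer3, of a family with near-identical copies that a probe set may not separate, by 0.14. Mean signals were 8.82 for Cacna2d1, 4.49 for Pclo, 4.07 for Hgf and 3.27 for Speer3, beside a lower quartile of tested signals of 4.21 to 4.31 on the arrays. A change in Pclo, Hgf or Speer3 could be missed at so little signal, so their not passing does not set the semaphorins apart. Genes along the stretch had differences of both signs. Sema3b and Sema3f lie with Gnai2, Slc38a3 and Gnat1 in a 5-gene stretch of chromosome 9, where no gene passed and the differences ran from -0.29 to 0.09. Slit2 is on chromosome 5 too, which held 5 of the 41 genes and 3 of the 7 that rose. Chromosome 1 held 3 of the 41 and 2 of the 7. The share of all genes of a chromosome that passed was not counted, so these counts single out no chromosome. Sema7a and Pgr are both on chromosome 9, which held 7 of the 41.

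**Figure D3:**
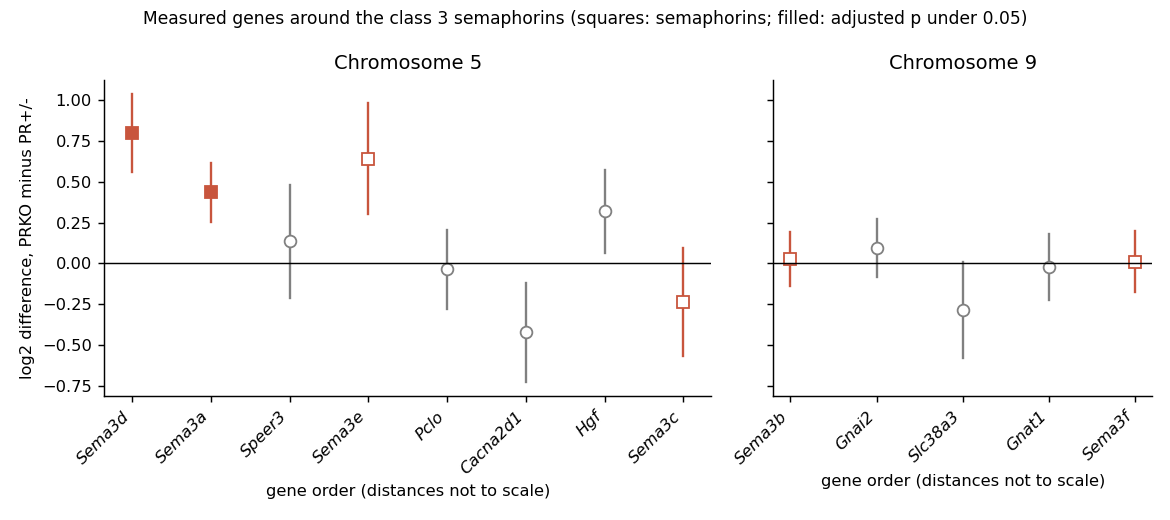
Log2 difference between PRKO and PR+/- complexes with its 95% interval (vertical axis) for the measured genes in their order along chromosome 5 from Sema3d to Sema3c and along chromosome 9 from Sema3b to Sema3f (horizontal axes, not to scale). Squares are semaphorins, circles other genes, and filled symbols passed. Sema3d at 0.80 and Sema3a at 0.44 are the filled symbols, and Sema3c at the other end of the chromosome 5 stretch is at -0.24.

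Among the 13 membrane-anchored semaphorins, Sema7a and Sema4c rose in PRKO and 11 did not pass. The median difference was 0.11. Sema7a, anchored by a lipid and known in immune cells and neurons as a ligand of plexin C1 and of integrins, read 8.40, 8.75, 8.83 and 8.65 in PR+/- and 9.61, 9.13, 9.25 and 9.28 in PRKO. PRKO replicate 1 was the highest and PR+/- replicate 1 the lowest, and the genotypes did not overlap. The means were 8.66 ± 0.19 and 9.32 ± 0.20, a difference of 0.66 ± 0.12 or 1.58-fold (limma adjusted p = 0.0118).

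Sema4c, a ligand of plexin B2, read 8.28, 8.50, 8.22 and 8.42 in PR+/- and 8.70, 8.78, 8.93 and 8.94 in PRKO. No PRKO array came below a PR+/- array. The difference was 0.48 ± 0.09, 1.40-fold (limma adjusted p = 0.0151). The call ended without PR+/- replicate 3 (0.44, adjusted p = 0.0557) and without PRKO replicate 3 (0.45, adjusted p = 0.0587).

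Sema6d, a ligand of plexin A1, read 5.44, 5.57, 5.66 and 5.60 in PR+/- and 6.04, 5.63, 5.82 and 5.75 in PRKO, and did not pass (0.24 ± 0.10, limma adjusted p = 0.240). Its genotypes overlapped, since PRKO replicate 2 was below PR+/- replicate 3. Sema5a, which carries thrombospondin repeats beside its semaphorin domain, read 9.21, 9.35, 9.39 and 9.82 in PR+/- and 9.56, 9.42, 9.60 and 9.63 in PRKO. PR+/- replicate 4 was above all PRKO arrays, and the difference was 0.11 ± 0.12.

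For Sema4b the genotypes did not overlap and PRKO was above (0.20, limma adjusted p = 0.211), and for Sema6b PRKO was wholly below (-0.20, adjusted p = 0.224). Neither passed. Sema6b had a pair of probe sets with identical values on every array, so they are 1 measurement. The immune regulators Sema4a and Sema4d differed by 0.23 and 0.06, and the second probe set of Sema4d by 0.12 ± 0.08. Sema6a, which signals with plexins A2 and A4 in the nervous system, differed by 0.14. Sema5b differed by 0.07, Sema4f by 0.03, Sema4g by 0.01 and Sema6c by -0.01. All 11 that did not pass had intervals within 1.5-fold.

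Plexins carry a cytoplasmic domain that acts on small GTPases of the Ras and Rap families, and 1 of the 9, Plxna2, rose while 8 did not pass. The median difference was 0.14. Plxna2, a partner of class 3 semaphorins with neuropilins and of class 6 semaphorins directly, read 5.90, 6.10, 6.08 and 6.42 in PR+/- and 6.57, 6.77, 6.64 and 6.63 in PRKO. The PRKO arrays lay close together, and PR+/- replicate 4 came nearest to them. The difference was 0.52 ± 0.11, 1.44-fold (limma adjusted p = 0.0224). Leaving out any one of PR+/- replicates 1 to 3 or PRKO replicates 2 to 4 ended the call, at differences of 0.45 to 0.53 and adjusted p between 0.0522 and 0.0767.

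Plxnc1, the plexin that binds semaphorin 7A, had the most negative difference of the 41. It read 8.98, 8.92, 8.57 and 9.42 in PR+/- and 8.16, 8.28, 8.64 and 8.44 in PRKO. PR+/- replicate 3 and PRKO replicate 3 crossed, and the other arrays were separate. The difference was -0.59 ± 0.16 with an interval from -0.94 to -0.25, which did not pass (limma adjusted p = 0.0774). Without PR+/- replicate 3 it was -0.73 and passed (adjusted p = 0.0366), and without PR+/- replicate 4 it was -0.44. Plxnc1 passed in only that 1 of 18 alternative fits, and its limma adjusted p reached 0.198 in the others.

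Plxna1, a shared receptor of class 3 and class 6 semaphorins, read 9.31, 9.20, 9.51 and 9.18 in PR+/- and 9.66, 9.36, 9.54 and 9.20 in PRKO, which overlapped (0.14 ± 0.11). For Plxnd1, the receptor of semaphorin 3E in vessels, the PR+/- arrays read 6.95, 6.83, 6.96 and 6.98 and the PRKO arrays 7.73, 6.999, 6.99 and 7.21. All PRKO arrays were above, replicate 1 by the widest margin, and the difference did not pass (0.30 ± 0.14, limma adjusted p = 0.325). Without PRKO replicate 1 the difference of Plxnd1 was 0.14 ± 0.09. Plxnb1, the semaphorin 4D receptor, was also wholly above in PRKO without passing (0.25, adjusted p = 0.206). Plxna3 differed by 0.38 ± 0.14 (adjusted p = 0.222), Plxna4 by 0.04, Plxnb2 by -0.08 and Plxnb3 by -0.03. Intervals were within 1.5-fold for 5 of the 9.

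Neither neuropilin passed (limma), and neither had an unadjusted p under 0.05. Nrp1, a co-receptor of class 3 semaphorins and of vascular endothelial growth factor (VEGF), read 6.17, 5.81, 5.80 and 5.57 in PR+/- and 6.41, 5.02, 5.41 and 5.70 in PRKO. PRKO held both the highest and the lowest array. The difference was -0.20 ± 0.24, and its interval from -0.72 to 0.31 was wider than 1.5-fold. The difference of Nrp1 ran from -0.46 without PRKO replicate 1 to 0.00 without PRKO replicate 2. Nrp2 differed by 0.18 (adjusted p = 0.479).

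Slit2 was the 1 of 3 slits that rose. It read 6.17, 6.37, 6.27 and 6.53 in PR+/- and 7.33, 7.01, 6.96 and 7.04 in PRKO. The genotypes were well apart, and PRKO replicate 1 was the highest. The means were 6.33 ± 0.15 and 7.09 ± 0.16, a difference of 0.75 ± 0.10 or 1.68-fold (limma adjusted p = 0.00223). Slit3, described in blood vessels and the diaphragm, read 5.65, 5.31, 5.64 and 5.39 in PR+/- and 5.59, 5.64, 5.43 and 5.59 in PRKO, which were interleaved (0.07 ± 0.10). Slit1, best known from brain, differed by 0.06. Neither passed, and the interval of Slit3 ran from -0.14 to 0.28.

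None of the 4 Robo receptor genes passed (limma) or had an unadjusted p under 0.05, and all 4 intervals lay within 1.5-fold. Robo2 read 9.75, 10.19, 10.22 and 10.44 in PR+/- and 10.09, 9.87, 10.25 and 10.33 in PRKO. The genotypes were interleaved, with a difference of -0.01 and an interval from -0.32 to 0.30. Robo1, the other main Slit receptor, differed by -0.10, with an interval from -0.35 to 0.15. Robo4, an endothelial member, read 4.79, 4.74, 4.85 and 4.69 in PR+/- and 4.68, 4.47, 4.62 and 4.74 in PRKO, which overlapped (-0.14 ± 0.08). Robo3, which modulates Slit responses in crossing axons, differed by 0.05.

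Rgmb, also called Dragon, had the largest difference of the 41 and the lowest adjusted p. It read 7.31, 7.54, 7.31 and 7.52 in PR+/- and 8.45, 8.15, 8.39 and 8.60 in PRKO. The lowest PRKO array was far above the highest PR+/- array, and each genotype was tight. The means were 7.42 ± 0.13 and 8.40 ± 0.19, a difference of 0.98 ± 0.10 or 1.97-fold with an interval from 0.75 to 1.21 (limma adjusted p = 0.000383). Neo1, the RGM receptor, read 9.06, 8.84, 9.17 and 9.04 in PR+/- and 9.11, 8.91, 9.03 and 8.85 in PRKO. Its genotypes were interleaved, and the difference was -0.05 with an interval from -0.25 to 0.16. Rgma, the retinal axon repellent of the family, differed by -0.03 with an interval from -0.20 to 0.14.

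Several ligands can be set beside receptors they are known to bind. Rgmb differed by 0.98 and Neo1 by -0.05, and Slit2 by 0.75 with Robo1 at -0.10 and Robo2 at -0.01. Sema7a differed by 0.66 and Plxnc1 by -0.59, and Sema4c by 0.48 and Plxnb2 by -0.08. Sema3d at 0.80 and Sema3a at 0.44 stood beside Nrp1 at -0.20, a value that single arrays moved, and Plxna2 at 0.52. Sema3e, which did not pass, differed by 0.64 and Plxnd1 by 0.30, and Sema6a by 0.14 with Plxna2 at 0.52. These pairs were chosen with the values known, and the difference between ligand and receptor was not tested.

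The log2 ratio of 2 genes on the same array leaves out anything that shifts a whole array. The 7 passing genes were each set against the gene of their family with the highest mean among those that did not pass, a choice made from the values and so given with no test. The ratio of Rgmb to Neo1 was higher in PRKO by 1.03, that of Slit2 to Slit3 by 0.69, that of Sema3d to Sema3c by 1.04, that of Sema3a to Sema3c by 0.67 and that of Sema7a to Sema5a by 0.55, each with no overlap of the genotypes. The ratio of Sema4c to Sema5a was higher by 0.37 and that of Plxna2 to Plxna1 by 0.38, and in both the genotypes overlapped. All 7 passing genes lay wholly above in PRKO by themselves, and Sema3c differed by -0.24. The ratios come from these same values and are no separate evidence.

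The calls on Rgmb, Sema3d and Slit2 held in each of the 18 alternative fits, whose differences ran from 0.91 to 1.06, from 0.74 to 0.89 and from 0.67 to 0.82. The call on Sema7a ended in 1, the fit over all 35556 probe sets (limma adjusted p = 0.0623). In that fit only 3 of the 41 genes passed, with 206 of all genes passing in place of 582. Leaving out single arrays gave 5 to 7 passing genes, not always the same ones. Without PR+/- replicate 3, Sema4c and Plxna2 lost their calls, while Sema3e (0.78) and Plxnc1 (-0.73) gained one.

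**Figure D4:**
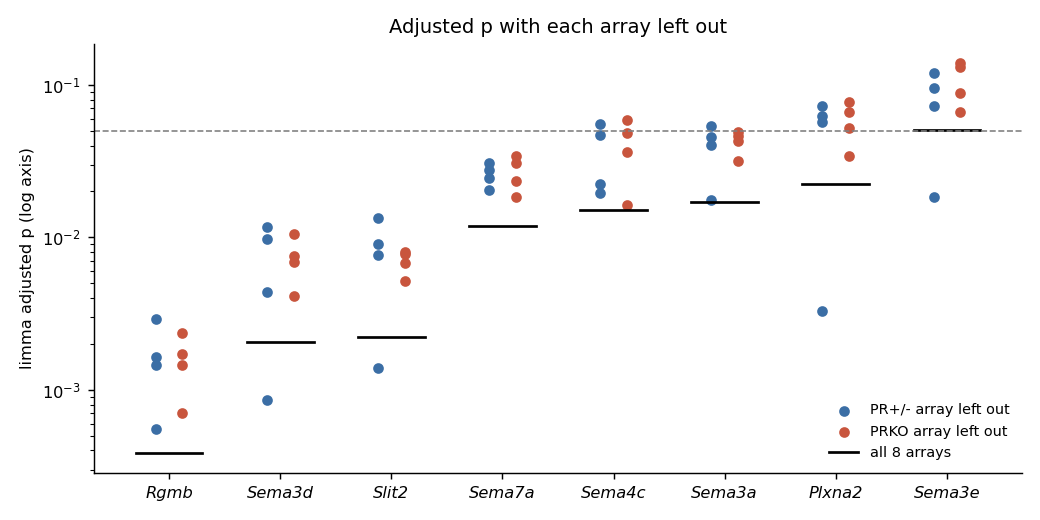
Limma adjusted p (vertical log axis) of the 7 passing guidance genes and Sema3e (horizontal axis) with all 8 arrays (black bar) and with each PR+/- array (blue) or PRKO array (red) left out, and the 0.05 threshold as a dashed line. Rgmb, Sema3d, Slit2 and Sema7a stay under the line with any array left out, and Plxna2 crosses it with 6 of the 8.

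Complexes taken by puncture can carry other ovarian cells, and in pooled tissue fewer cells of a type and less RNA per cell cannot be told apart. The 14 oocyte markers had mean levels of 6.26 to 7.09 in PR+/- and 6.35 to 6.92 in PRKO, and the 8 measured cumulus markers 8.53 to 9.22 and 8.65 to 9.18. No gene of either list passed (limma), with 1 and 2 of them at an unadjusted p under 0.05. The lists thus overlapped between the genotypes, and none of their genes lay under the lower quartile on every array.

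The 12 theca and stroma markers, among them the collagens and the theca enzyme gene Cyp17a1, had mean levels of 6.02 to 6.31 in PR+/- and 6.04 to 6.54 in PRKO. Of these 9 were above 0 in difference, none passed (limma), 3 had an unadjusted p under 0.05 and 1 lay under the lower quartile on every array. PRKO replicate 1 had the highest level of this list and also the highest array for 4 of the 7 passing guidance genes. Without PRKO replicate 1 the differences were 0.96 for Rgmb, 0.75 for Sema3d, 0.67 for Slit2 and 0.56 for Sema7a, and all 7 still passed. With the list's mean as a covariate the differences were 0.92 for Rgmb, 0.79 for Sema3d, 0.68 for Slit2, 0.53 for Sema7a and 0.52 for Sema4c, which passed. In the same fit Sema3a at 0.37 (adjusted p = 0.0594) and Plxna2 at 0.54 (adjusted p = 0.0540) did not.

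The mean level of the 5 measured mural granulosa markers ran from 9.60 to 9.83 in PR+/- and from 9.02 to 9.25 in PRKO. Lhcgr and Cyp19a1, also on this list, had no probe set carrying 1 gene symbol. Cd34 was counted in this list and not among the endothelial markers. Cd34 (-1.44, limma adjusted p = 0.000945) and Fshr (-1.06, adjusted p = 0.00221) fell and Cyp11a1 rose (0.39, adjusted p = 0.0324). The calls on Cd34 and Fshr held in all 18 alternatives, and that on Cyp11a1 ended in 9 of them, among them 6 of the 8 that leave out an array (adjusted p from 0.0604 to 0.0923). Foxl2 (-0.33, limma adjusted p = 0.175) and Nr5a2 (-0.30, adjusted p = 0.149) did not pass. The genotypes did not overlap in the mean of these 5 genes, among which Cd34 and Fshr had the largest differences. The mean without Cd34 and Fshr was not taken, and the part of this list in the guidance results was not tested. Endothelial markers, of which 1 of 9 lay under the lower quartile on every array, had levels of 4.85 to 4.95 in PR+/- and 4.96 to 5.11 in PRKO. Of these only Kdr passed, and without it the levels of the other 8 were 4.76 to 4.84 and 4.71 to 4.98, which overlapped. The endothelial cadherin gene Cdh5 differed by -0.29 (adjusted p = 0.346), and without PRKO replicate 1 by -0.44, which passed (adjusted p = 0.0455). Immune markers (8 genes, 4 of them under the lower quartile on every array) and neuron and glia markers (7 genes, 3 under it) had no gene that passed (limma), with 0 and 2 at an unadjusted p under 0.05. Their mean levels were 4.35 to 4.39 and 4.35 to 4.49 for the first, and 4.44 to 4.55 and 4.53 to 4.63 for the second, in PR+/- and PRKO.

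Among 116 measured partner genes of these pathways, 2 rose, 6 fell and 108 did not pass, with a median difference of 0.01. Over all genes 2.92% passed, 1.43% upward and 1.48% downward. Of these changes 6 were in the list of plexin co-receptors and effectors, where 5 of 37 genes fell and 1 rose. Rras2, which encodes a Ras-family GTPase (TC21) close to the R-Ras on which plexins act, read 10.28, 10.31, 10.19 and 9.45 in PR+/- and 8.46, 8.56, 8.47 and 8.99 in PRKO. The genotypes did not overlap, but the replicates numbered 4 of both lay nearest to each other. Rras2 fell by 1.44 ± 0.18 on the log2 scale, 2.71-fold (limma adjusted p = 0.00132).

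Rnd3, whose protein plexins bind, read 10.46, 10.39, 10.29 and 9.71 in PR+/- and 9.47, 9.21, 9.22 and 9.58 in PRKO. As for Rras2 there was no overlap and PR+/- replicate 4 was the lowest control. Rnd3 fell by 0.85 ± 0.15, 1.80-fold (limma adjusted p = 0.0118). Nrcam, an adhesion molecule that joins neuropilin-2 complexes, read 8.10, 7.72, 8.05 and 7.07 in PR+/- and 7.29, 6.40, 6.68 and 6.59 in PRKO, and fell by 1.00 ± 0.23 (adjusted p = 0.0379). PRKO replicate 1 and PR+/- replicate 4 overlapped. Its call was lost when any one of PR+/- replicates 1 to 3 or PRKO replicates 2 to 4 was left out (adjusted p between 0.0890 and 0.123).

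Rap1a, a GTPase that plexins inactivate, fell by 0.51 ± 0.11 (limma adjusted p = 0.0337), and Dpysl3, a collapsin response mediator, fell by 0.41 ± 0.10 (adjusted p = 0.0468). Rap1a did not pass without PR+/- replicate 1, 2 or 3 or PRKO replicate 1, 3 or 4 (adjusted p from 0.0623 to 0.106). Dpysl3 kept its call without PRKO replicate 4 but lost it without any other single array (adjusted p from 0.0686 to 0.140). Mical2, of the family of actin-oxidising enzymes that work below plexins, rose, from 8.08, 8.36, 8.26 and 8.50 in PR+/- to 8.88, 8.59, 8.79 and 9.06 in PRKO. The genotypes were separate by a narrow margin, and the difference was 0.53 ± 0.12 (adjusted p = 0.0312). That call ended without PR+/- replicate 1, 2 or 3 or PRKO replicate 1, 3 or 4 (adjusted p from 0.0631 to 0.0932). With each array centred on its median, Mical2 and Dpysl3 did not pass (adjusted p = 0.0504 and 0.0594). In the fit with the theca and stroma level as covariate, Mical2, Rap1a and Dpysl3 did not pass (adjusted p = 0.0967, 0.107 and 0.0535). Farp1 at -0.49 ± 0.14 and Rras at 0.39 ± 0.11 did not pass (adjusted p = 0.0958 and 0.0843). Without PR+/- replicate 4 or PRKO replicate 1, Farp1 passed (adjusted p = 0.0280 and 0.0375).

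Kdr, the VEGF receptor that neuropilin-1 assists, was the 1 of 13 other semaphorin and neuropilin partners that rose. It read 5.59, 5.80, 5.63 and 5.93 in PR+/- and 6.12, 6.45, 6.68 and 6.89 in PRKO. There was no overlap, and the difference was 0.80 ± 0.15, 1.74-fold (limma adjusted p = 0.0126). The call ended without PR+/- replicate 3 (adjusted p = 0.0508) and without PRKO replicate 3 (adjusted p = 0.0512). Vegfc differed by 0.41 ± 0.12 and Pgf by 0.22, and neither passed (adjusted p = 0.0917 and 0.385).

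Among 9 proteases that process guidance ligands, Tll1, a metalloprotease of the tolloid family, read 6.30, 6.53, 6.49 and 6.05 in PR+/- and 5.56, 5.15, 5.65 and 5.93 in PRKO. The genotypes were close at the replicates numbered 4 and did not overlap. Tll1 fell by 0.78 ± 0.15, 1.71-fold (limma adjusted p = 0.0193), and the call ended without PR+/- replicate 2 or 3 or PRKO replicate 3 (adjusted p from 0.0512 to 0.0713). Adam17, a sheddase, differed by 0.17 and Mmp14 by -0.07, and neither passed.

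No gene passed in the netrin system (12 genes), among the slit and robo effectors (23 genes) or among the BMP partners of RGMs (22 genes), with 4, 7 and 3 genes at an unadjusted p under 0.05 (limma), which 16.0% of all genes reached. Their median differences were -0.04, 0.02 and 0.02. The largest netrin-system differences were in the netrin receptor genes Unc5d (0.58 ± 0.27, adjusted p = 0.331) and Unc5c (-0.33 ± 0.12, adjusted p = 0.187). Among slit and robo effectors they were in Srgap3, whose protein binds Robo receptors (-0.39 ± 0.16, adjusted p = 0.242), and Gpc1, a glypican that binds Slit (0.37 ± 0.11, adjusted p = 0.109). Of the BMP partners, the ligand gene Bmp6 differed by 0.35 ± 0.15 (adjusted p = 0.295) and the BMP target Id2 by 0.33 ± 0.16 (adjusted p = 0.344). Hjv, the RGM counted in this list, differed by -0.29 ± 0.12 (adjusted p = 0.241).

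**Figure D5:**
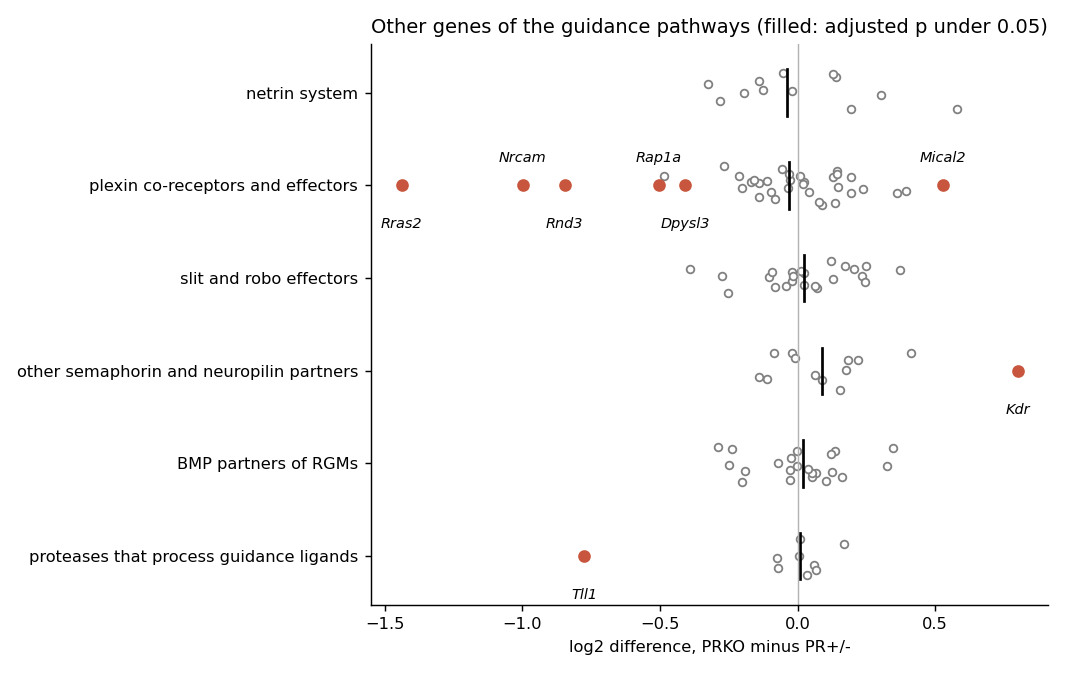
Log2 difference between PRKO and PR+/- complexes (horizontal axis) of the 116 measured partner genes in 6 lists (vertical axis), 1 point per gene, with the median of each list as a black bar. Filled, named points passed, and 6 of these 8 lie in the list of plexin co-receptors and effectors, from Rras2 at -1.44 to Mical2 at 0.53.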

How the data were processed

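The authors deposited log2 signals, 1 per probe set and array, from biotin-labelled cRNA of 8 pools on Affymetrix whole-transcript arrays, per the labels. Partek is named in the submitters' processing notes without a version, and the sources used here give neither the normalization nor scan batches. A log scale of base 2 was inferred from the values, since natural or decimal logarithms would put the highest above the 65535 of a 16-bit scanner. Of 35556 probe sets, 21789 with 1 gene symbol in the platform annotation were tested without a filter, and 1621 with several and 12146 with none were left out. Genes were read at the highest-mean probe set, which 2 of the 41 needed. limma 3.58.1 in R 4.3.3 (lmFit, eBayes, prior degrees of freedom 6.04) compared PRKO with PR+/-, with no block, two-sided. Labels call the samples biological replicates, and precision is limited by the number of arrays. No scanner files were used.

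The members and lists were chosen with earlier results of these data known. Values on every array are given for members that passed and, per family, for the other member with the largest difference and the one with the highest mean. From each partner list come up to 6 genes that passed and the 2 others with the largest difference. The arrays of Plxnd1, the chromosomal neighbours and the within-array ratios were added after values were seen. Alternatives were a replicate block, quantile normalization, centring, a signal filter, an intensity trend, all probe sets, probe-set means, marker covariates, array weights, an adjusted p under 0.1 and each array left out. Promoters came from RefSeq, and motifs were searched on both strands. Tables and plots used pandas 2.3.3 and matplotlib 3.10.9 with numpy 2.4.6, and the fit was checked on simulated data.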

Additional observations from a re-analysis of the deposited data

Results flagged for a closer look

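In 3 of 154 groups of 4 arrays tested, 1 array lay far from the other 3, which chance alone gives in about 5% of groups. For Plxnd1, the plexin that binds semaphorin 3E, PR+/- replicate 2 was at 6.83, under the other PR+/- arrays at 6.95 to 6.98. For Rras2, PR+/- replicate 4 was at 9.45, under the others at 10.19 to 10.31. For Vegfc, a VEGF-family ligand gene, PRKO replicate 1 was at 6.56, above the others at 6.08 to 6.11.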

How the results depend on the processing

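Of the 41 guidance genes, 7 passed with all arrays, and 5 to 7, not always the same genes, with 1 array left out. Of the 116 partner genes, 8 passed, and 2 to 8 with 1 array left out, with 5 or fewer without PR+/- replicate 1, 2 or 3 or PRKO replicate 3 or 4. Testing all probe sets left 3 guidance and 1 partner genes. That fit adjusted for more tests and also gave other standard errors. Theca and stroma markers as a covariate left 5 of each. The cause of the lost calls was not tested in either setting. Over all genes the count was 582, and 206, 367 and 301 to 532 in these settings. An adjusted p under 0.1 gave 932 genes. With the replicate number as a block 8 guidance and 11 partner genes passed, and Sema3e (adjusted p = 0.0305), Farp1 (0.0270) and Vegfc (0.0486) gained a call. Deviations of same-numbered arrays correlated at 0.121, 0.080, 0.145 and 0.153, all positive but 1 under 0.1. PR+/- replicates 1 and 4 matched their own number best and 2 and 3 did not, so the samples were not treated as paired. Of 1368 values of 77 named genes under the alternatives, 1279 kept their side of the threshold, 75 lost it, 14 gained it and no called value changed sign. Sema3e passed in 7 of 18 alternatives. Scan batches and the authors' normalization were not varied.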
